A study of Drosophila melanogaster with 5 samples.

Results

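The Mst genes described here are a family of 7 Drosophila melanogaster genes named for male-specific transcripts: Mst84Da, Mst84Db, Mst84Dc, Mst84Dd, Mst87F, Mst98Ca and Mst98Cb. They were taken as the probe sets whose array annotation names 1 of these genes and no other. This gave 7 probe sets, 1 per gene, of the 13966 on the array besides its controls, where 10844 genes have a probe set of their own. The members were selected on their signals in these same arrays: earlier results had shown Mst84Db and Mst84Dd higher in the mutant strain. Their differences between the strains are therefore given as a description, without a test.

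RNA came from pupal heads 80 h after pupa formation, with 15 to 20 heads in each sample and 1 Affymetrix array per sample. The 3 otd-uvi arrays were from a strain with a mutant allele that the labels call eye-specific, in the gene oc (orthodenticle, otd), which encodes a homeodomain transcription factor. The 2 Canton S arrays were from a wild-type laboratory strain. Each array came from its own RNA extraction. Each group was 1 strain, so strain background cannot be told apart from the allele, and the labels give neither the sex of the heads nor the cells in which the allele acts. The oc probe set had signals of 27.6, 46.8 and 59.8 on the otd-uvi arrays and of 71.7 and 56.4 on the Canton S arrays, with overlap, and the labels do not say whether the allele lowers the transcript. All values are MAS5 signals on a linear scale, and log2 values are of signal plus 8. Precision is limited by having 5 arrays. Of 13 measured markers of photoreceptors, neurons and glia, 13 exceeded the mouse and yeast control probe sets on every array, although 4 of them (chp, Arr2, inaD and trp) fell in otd-uvi. The median signal of all probe sets was 41.8 to 43.1 on the otd-uvi arrays and 40 to 41.3 on the Canton S arrays.

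The Mst genes are known from the testis. They are transcribed in spermatocytes, and their mRNAs are stored and translated much later, when the spermatids elongate and build the sperm tail. The proteins carry repeats of cysteine, glycine and proline and are components of that tail, which gives the family its other name, Mst(3)CGP. A head has no testis, and the genes are best known as markers of the male germ line. In a sample of whole heads, fewer cells of a type and less RNA per cell cannot be told apart.

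The otd-uvi arrays had higher signals than the Canton S arrays for 7 of 7 Mst probe sets, with no overlap between the groups for any of them. Over all probe sets, 18.6% were higher in otd-uvi without overlap. The median log2 difference, otd-uvi minus Canton S, was 1.70 over the 7 probe sets and 0.05 over all probe sets. The summed signal of the 7 was 948, 428 and 893 on otd-uvi arrays 1, 2 and 3, against 176 and 183 on the Canton S arrays. The second otd-uvi array lay between the Canton S arrays and the other otd-uvi arrays. In the fit over all probe sets with limma and Benjamini-Hochberg adjustment, 2 of the 7 were among the probe sets with an adjusted p under 0.05 and a higher signal in otd-uvi, which were 0.322% of all; in either direction 0.773% were called, and 0.451% were lower. The 2, Mst84Db and Mst84Dd, are those for which the family was chosen, so nothing is read from the count. A log2 difference above 0 was found for 7 of 7, against 55.2% of all probe sets.

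**Figure D1:**
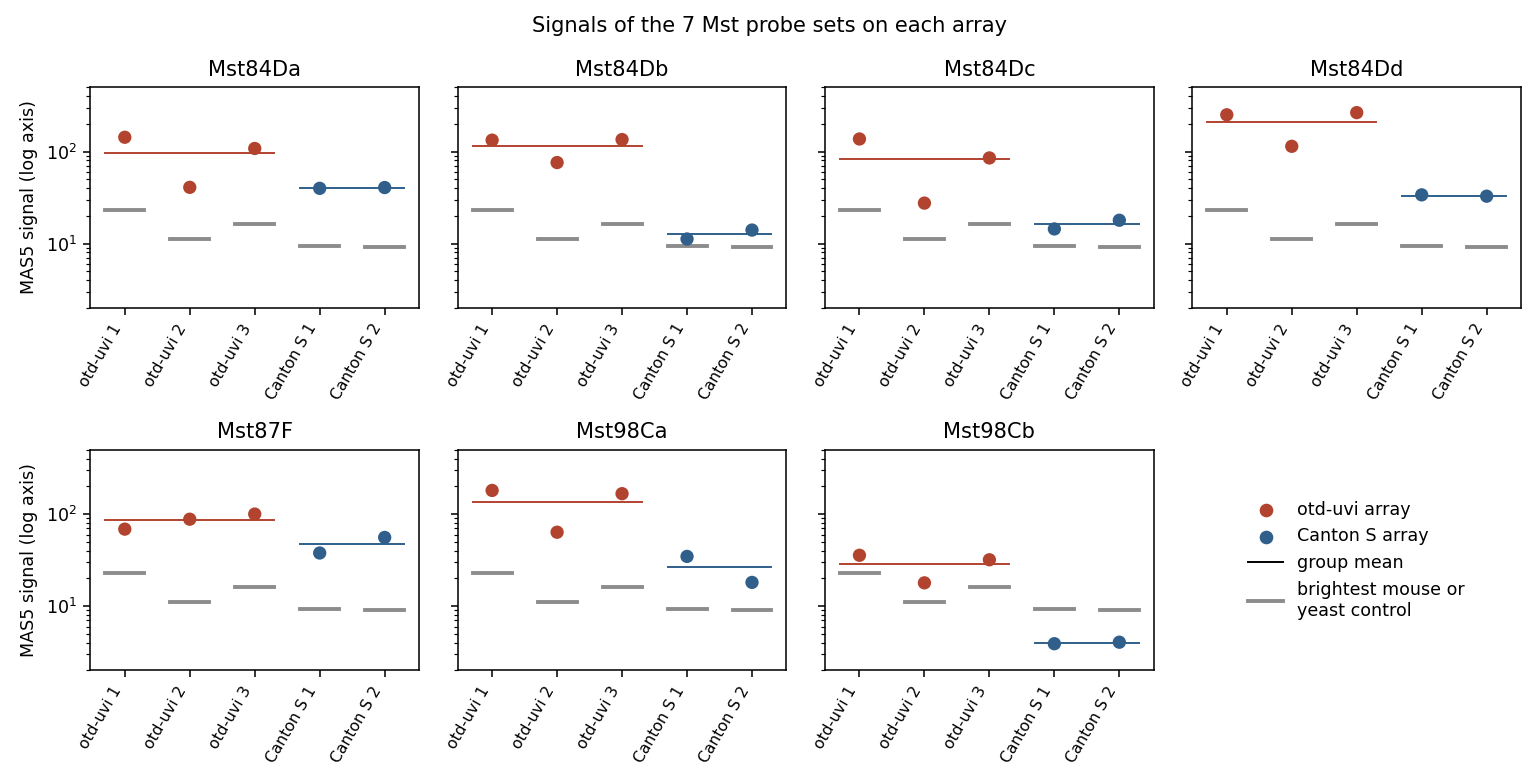
MAS5 signal (log axis) of each Mst probe set on the 3 otd-uvi arrays and the 2 Canton S arrays, with the group means as thin lines and the brightest of 8 mouse and yeast controls of each array as grey bars. The otd-uvi points lie above the Canton S points in every panel, by the smallest margin for Mst84Da (40.8 on otd-uvi array 2 against 40.6 on Canton S array 2), and only Mst98Cb lies under the controls on the Canton S arrays.

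The signals were first set against control probe sets that have no target in fly RNA, 8 from mouse and yeast. Their median signal was 7.22, 7.92 and 7.03 on the otd-uvi arrays and 3.69 and 3.07 on the Canton S arrays (a two-sided exact permutation test gave p = 0.1, below which 3 arrays against 2 cannot go). The brightest of the 8 had a signal of 22.9, 11.2 and 16.2 on the otd-uvi arrays and 9.30 and 9.13 on the Canton S arrays. The otd-uvi arrays had the higher signals without target. On every otd-uvi array 7 of 7 Mst probe sets exceeded the brightest control, as did 6 of 7 on both Canton S arrays. With 15 bacterial controls added, 7 of 7 were above the brightest on each otd-uvi array, 4 on Canton S array 1 and 6 on Canton S array 2.

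The control signals, like the Mst signals, were higher on the otd-uvi arrays. Among the 3 otd-uvi arrays, 6 of 7 Mst signals were lowest on array 2. On that array the median of the mouse and yeast controls was highest (7.92), but the brightest of them was lowest (11.2). For the comparison of the strains, each Mst signal was also divided by the controls of its array. Divided by the brightest mouse or yeast control of the same array, the Mst signals were higher in otd-uvi without overlap for 5 of 7 probe sets, against 2.46% of all probe sets. The exceptions were Mst84Da and Mst87F. Divided by the median of the same controls, 3 of 7 were higher without overlap, against 1.63% of all probe sets. These were Mst84Db, Mst84Dd and Mst98Cb. None of the 7 was lower in otd-uvi without overlap when divided by the median control. The hybridization spikes (BioB, BioC, BioDn and CreX, 9 probe sets), which are added to the labelled sample, had a median of 299, 276 and 275 on the otd-uvi arrays and 302 and 318 on the Canton S arrays. Relative to the median spike, the Mst differences were 0.91 to 2.66 on the log2 scale, against 0.78 to 2.54 without that step. Relative to the mouse and yeast controls they were smaller, 0.34 (Mst87F) to 2.10 (Mst84Db), with Mst84Da at 0.54.

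Mst84Da, Mst84Db, Mst84Dc and Mst84Dd form a cluster, with no other gene between them in the RefSeq annotation (Release 6 of the genome). All 4 encode small proteins of the sperm tail. Mst84Db (143434_at) had signals of 133, 75.9 and 135 on otd-uvi arrays 1, 2 and 3 and of 11.2 and 14.0 on the Canton S arrays. The lowest otd-uvi array was far above the highest Canton S array. Its mean was 114 ± 33.3 in otd-uvi and 12.6 ± 1.97 in Canton S (SD, n = 3 and 2), a 9.11-fold ratio of the means and a log2 difference of 2.54 (SE 0.32). The Canton S signals were 1.20 and 1.53 times the brightest mouse or yeast control, and on Canton S array 1 a bacterial control was brighter than Mst84Db, at 19.2. The 9.11-fold ratio therefore has a Canton S value near the level of the controls under it.

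Mst84Dd (143436_at) had signals of 251, 114 and 265 on the otd-uvi arrays, against 33.8 and 32.7 on the Canton S arrays. All 3 otd-uvi arrays were well above both Canton S arrays, which differed by a factor of 1.03. The mean was 210.1 ± 83.6 in otd-uvi and 33.2 ± 0.793 in Canton S, 6.32 times higher in otd-uvi, with a log2 difference of 2.31 (SE 0.36). Here the Canton S signals were 3.64 and 3.58 times the brightest mouse or yeast control, further above it than for Mst84Db.

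Mst84Dc (143435_at) had signals of 137, 27.5 and 85.2 on the otd-uvi arrays and of 14.4 and 17.9 on the Canton S arrays. The otd-uvi arrays differed 4.97-fold among themselves, the widest spread of the 7, and the second array was nearer to Canton S than to the other mutant arrays. The log2 difference was 1.70 (SE 0.56), and the mean signals were 83.1 ± 54.6 in otd-uvi and 16.2 ± 2.53 in Canton S. Without otd-uvi array 2 it was 2.27. Mst84Da (143433_at) had signals of 143, 40.8 and 108 on the otd-uvi arrays and of 39.8 and 40.6 on the Canton S arrays. The second otd-uvi array equalled the Canton S arrays to within 0.02 on the log2 scale, so the group difference of 0.98 (SE 0.46) came from arrays 1 and 3. Relative to the brightest control, the ratios of Mst84Da were 6.23, 3.66 and 6.70 on the otd-uvi arrays and 4.28 and 4.45 on the Canton S arrays, and the groups overlapped.

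Mst87F (143274_at), the member on which the delayed translation of these mRNAs has been studied in most detail, had signals of 68.7, 88.1 and 100.2 on the otd-uvi arrays and of 37.8 and 55.8 on the Canton S arrays. It had the smallest difference of the 7, at 0.78 (SE 0.27), and the mean signals were 85.6 ± 15.9 in otd-uvi and 46.8 ± 12.8 in Canton S. It also differed least among the otd-uvi arrays, 1.46-fold from the lowest to the highest. As a multiple of the brightest control its signals were 3.0, 7.90 and 6.20 on the otd-uvi arrays and 4.06 and 6.12 on the Canton S arrays. These ranges overlapped, and without Canton S array 1 the log2 difference was 0.54.

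Mst98Ca and Mst98Cb are neighbours of each other, with no gene between them, and encode longer proteins with the same repeats. Mst98Ca (152226_at) had signals of 181, 63.6 and 167 on the otd-uvi arrays and of 34.7 and 18.1 on the Canton S arrays. The groups were apart, but the Canton S arrays differed 1.91-fold, more than for any other member. The means were 137 ± 64.0 in otd-uvi and 26.4 ± 11.7 in Canton S, and the log2 difference was 2.0 (SE 0.46).

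Mst98Cb (143432_at) had signals of 35.7, 17.9 and 31.9 on the otd-uvi arrays and of 3.90 and 4.05 on the Canton S arrays. It was the member with no signal above the controls in Canton S: those arrays were at 0.419 and 0.444 times the brightest mouse or yeast control, against 1.56, 1.61 and 1.98 times in otd-uvi. The otd-uvi signal was at least 2.97-fold higher, taken against the brightest mouse or yeast control of each Canton S array in place of the Mst98Cb signal. A bacterial control reached 19.2 on Canton S array 1, and with it the bound is lower. The bound also makes no allowance for the higher control signals on the otd-uvi arrays. Its log2 difference was 1.57 (SE 0.31), and that value depends on the added 8. Dim probe sets in general had higher values in otd-uvi: the tenth of probe sets with a mean signal like that of Mst98Cb had a median log2 difference of 0.28. For the other 6 members the corresponding medians were -0.08 to -0.02.

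**Figure D2:**
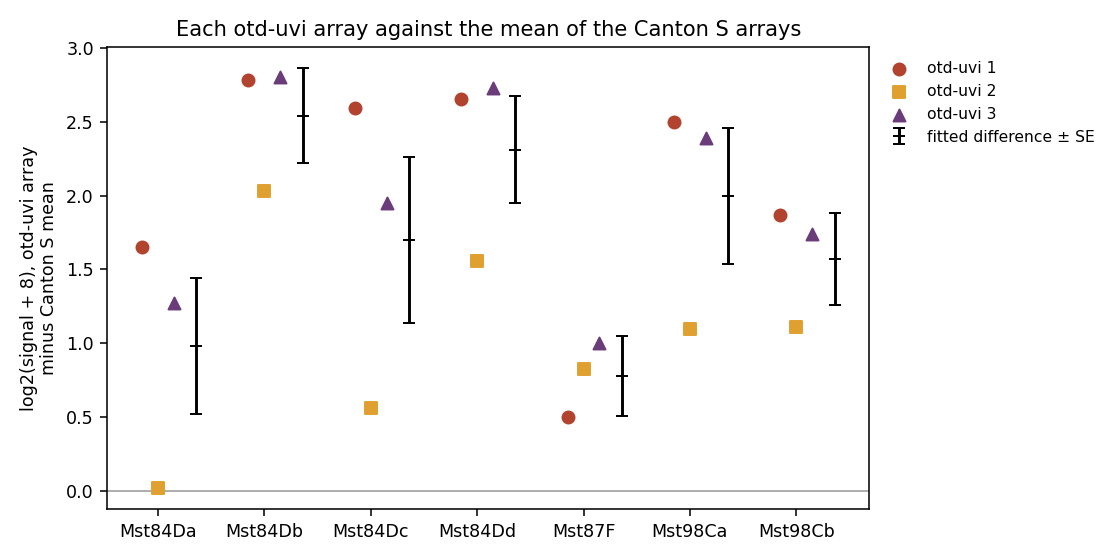
Difference in log2(signal + 8) between each otd-uvi array and the mean of the Canton S arrays for the 7 Mst genes, with the fitted group difference and its standard error. Array 2 has the smallest difference for every gene but Mst87F, from 0.02 for Mst84Da to 2.03 for Mst84Db.

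The Mst genes also varied within the mutant group. This is a description, since the members were chosen on signals of these arrays. On otd-uvi array 2 the signal was the lowest of the 3 otd-uvi arrays for 6 of 7 Mst probe sets, whereas this array was the lowest for 30.7% of all probe sets. Mst87F was the exception, with array 1 the lowest. The mean log2 signal of arrays 1 and 3 minus that of array 2 had a median of -0.02 and a 95th percentile of 0.72 over single probe sets. The values of Mst84Dc (1.71), Mst84Da (1.44), Mst98Ca (1.34), Mst84Dd (1.13) and Mst84Db (0.76) lay above that point, Mst98Cb (0.69) just under it, and Mst87F was at -0.08. The members are not independent of each other, since 4 and 2 of them are adjacent related genes, and cross-hybridization between them was not tested. On the Canton S arrays Mst98Ca was higher on array 1 and Mst87F on array 2, and the other members differed there by factors of 1.02 to 1.25. The 3-prime to 5-prime ratio of the internal control genes, a sign of RNA degradation when high, was intermediate on otd-uvi array 2. It averaged 1.32, 1.68 and 1.88 on the log2 scale on the otd-uvi arrays and 1.41 and 1.37 on the Canton S arrays.

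Likeness between profiles was measured as the root mean square difference over the 5 arrays between log2 values, each centred on its own mean. Over the 21 pairs of members it was 0.19 to 0.93, with a median of 0.48. The most alike were Mst84Db and Mst84Dd, at 0.19, followed by Mst84Dd and Mst98Ca from separate clusters, at 0.28. Mst84Da and Mst84Dc, with their wide spread among the mutant arrays, were at 0.38, and Mst98Ca and Mst98Cb at 0.39. Position in 1 cluster did not sort the pairs: Mst84Da and Mst84Db, which are adjacent, were at 0.81. Mst87F was the least alike to the rest, at 0.93 from Mst84Db and 0.54 from Mst98Cb.

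Outside the family, the 6 probe sets nearest to the mean Mst profile were at distances of 0.16 to 0.20, against a median of 0.92 over the other probe sets that name 1 gene. Since the mean profile is that of a group difference, these genes share the difference by construction. The nearest was CG14374 (151040_f_at, distance 0.16), with signals of 255, 142 and 300.4 on the otd-uvi arrays and of 77.6 and 64.1 on the Canton S arrays. Drsl5 (148103_at, distance 0.18), of the drosomycin family of antifungal peptides, had 785, 429 and 963 on the otd-uvi arrays, against 173 and 235 on the Canton S arrays. Both genes were above the mouse and yeast controls on all arrays, and array 2 was the lowest otd-uvi array for both. Next came CG7168 at 0.18, Spn43Ad, a serpin gene, at 0.19, BBS1, a gene of the cilium transport complex named for Bardet-Biedl syndrome, at 0.20, and hng3 at 0.20. Their log2 differences were 1.31 to 1.73, and since they were chosen for this profile no test is given.

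The next question was whether other transcripts of the male germ line differed as well. Of 47 measured genes of spermatocytes, spermatids and sperm, 0 passed the test in limma, against 0.773% of all probe sets. An unadjusted p under 0.05 was found for 9, all of them higher in otd-uvi. Over all probe sets this held for 15.0% in either direction and for 7.77% higher in otd-uvi. The median log2 difference was 0.27 over the list and 0.05 over all probe sets. Of the 47, 35 were above 0, against 55.2% of all probe sets. Many listed genes were dim, and the tenth of probe sets with signals like that of Mst98Cb had a median of 0.28. Probe sets matched to the list in signal were not compared, so nothing is read from the list median. Higher in otd-uvi without overlap were 15 of the 47 (31.9%), against 18.6% of all probe sets. The same held for 4 of the 8 mouse and yeast controls. Without an intensity trend and with array weights 1 gene passed. Of the 47 genes, 6 were above the brightest mouse or yeast control on all arrays and 17 on none.

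The largest difference in the list was that of Prosbeta5R1 (147762_at), a proteasome subunit gene of the testis, at 1.58 (SE 0.26, adjusted p = 0.0519). Its signals were 28.3, 20.9 and 25.7 on the otd-uvi arrays and 4.10 and 1.98 on the Canton S arrays, where it was under the controls. Against the brightest mouse or yeast control of each Canton S array the signal was at least 2.69-fold higher, a bound that is lower with the bacterial controls. It was the gene that passed with array weights (adjusted p = 0.0485) and without the trend (adjusted p = 0.0433). ATPsynbetaL, a testis form of the ATP synthase beta subunit, was at 1.51 (adjusted p = 0.276), with signals of 173, 133 and 146 on the otd-uvi arrays and 109 and 18.3 on the Canton S arrays. Pif1A was at 0.99 (adjusted p = 0.219) and Prosbeta4R1, another proteasome subunit gene, at 0.92 (adjusted p = 0.235).

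Defining transcripts of the testis were named after their values were seen. The tubulin gene betaTub85D, which forms the sperm tail axoneme, had signals of 28.9, 14.5 and 15.4 on the otd-uvi arrays and 12.1 and 11.4 on the Canton S arrays, and its log2 difference was 0.44 (adjusted p = 0.544). Mst77F, a chromatin protein gene of the sperm nucleus that shares the Mst name but not the family, had 13.5, 12.4 and 10.6 on the otd-uvi arrays and 6.66 and 3.19 on the Canton S arrays (adjusted p = 0.254). Mst84B, another gene outside the family, had 10.9, 4.58 and 10.8 on the otd-uvi arrays and 2.92 and 1.03 on the Canton S arrays (0.73, adjusted p = 0.235). It did not overlap between the strains and was lowest on array 2 among the otd-uvi arrays, but lay under the brightest control on every array. The summed signal of the 47 genes was 1534 to 1897 in otd-uvi and 1298 to 1579 in Canton S, and these ranges overlapped. Much of each sum was bol, a translation regulator of male meiosis, at 753, 757 and 931 in otd-uvi and 898 and 828 in Canton S. Without bol the sums were 893, 777 and 966 in otd-uvi and 682 and 470.2 in Canton S, with no overlap. Since 17 of the 47 genes were under the brightest control on every array, control-level signal is part of these sums. That level was itself higher on the otd-uvi arrays, so nothing is read from the lack of overlap. The share of this list with its lowest otd-uvi signal on array 2 was 44.7%, against 30.7% of all probe sets. That share was not particular to the list: in the lists described below it ran from 0% (flight muscle) to 58.8% (gut and tubule), with 46.2% for ovary genes.

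Regulators that switch on the spermatid genes in the testis were tested as a list of their own. Of 13 measured genes of the testis-specific transcription complexes 0 passed in limma and 1 had an unadjusted p under 0.05. The shares over all probe sets were 0.773% and 15.0%. The median log2 difference of the 13 was 0.23, against 0.28 for the tenth of probe sets with signals like that of Mst98Cb. Most of the 13 were dimmer than Mst98Cb, so nothing is read from that comparison. Higher in otd-uvi without overlap were 6 of the 13 (46.2%), against 18.6% of all probe sets and 4 of the 8 mouse and yeast controls. Here 1 gene exceeded the brightest control on all arrays and 6 on none. The 1 with the unadjusted p was tomb, at 1.35 (adjusted p = 0.208), with signals of 12.4, 27.2 and 42.8 on the otd-uvi arrays and 5.40 and 4.69 on the Canton S arrays. Its lowest otd-uvi array was array 1, where most of the Mst genes were high. Taf12L was at 0.46 (adjusted p = 0.477) and sa at 0.33 (adjusted p = 0.403), and kmg, at 0.34 (adjusted p = 0.708), changed sign with the RNA integrity covariate and without Canton S array 2. A founding member of the set, aly, had signals of 6.65, 7.51 and 6.45 on the otd-uvi arrays and of 6.21 and 9.61 on the Canton S arrays.

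Other organs of reproduction gave no call either. Of 20 measured genes of the male accessory gland and ejaculatory tract, 0 passed in limma and 0 had an unadjusted p under 0.05. The shares over all probe sets were 0.773% and 15.0%. The median log2 difference of the 20 was 0.09, and 13 of the 20 were under the brightest control on every array. The summed signal, 5763 to 5860.5 in otd-uvi and 5927 to 6367 in Canton S, was almost wholly EbpIII, at 5609.6 to 5722 and 5807 to 6260.2. Acp63F had the largest difference, at 0.71 (adjusted p = 0.373). Mst57Da and Mst57Dc, accessory gland genes that share the Mst name, were at 0.58 and -0.44 (adjusted p of 0.600 and 0.553), and the sign of each turned in 1 other setting. The value for lectin-46Ca was 0.51 (adjusted p = 0.563).

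Of 26 ovary genes 0 passed in limma and 2 had an unadjusted p under 0.05, against 0.773% and 15.0% of all probe sets. Vm26Aa, an eggshell gene, had signals of 80.0, 61.1 and 103 on the otd-uvi arrays and of 30.2 and 26.0 on the Canton S arrays, a log2 difference of 1.28 (adjusted p = 0.111, and 0.0459 without the dimmest 40% of probe sets). The second, dec, also an eggshell gene, was at 1.12 (adjusted p = 0.257). Of the others fs(1)K10 was at -0.66 (adjusted p = 0.477) and bgcn at 0.54 (adjusted p = 0.337). Of 11 listed genes of the Y chromosome 0 had a probe set naming them alone, and they were not analysed here.

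**Figure D3:**
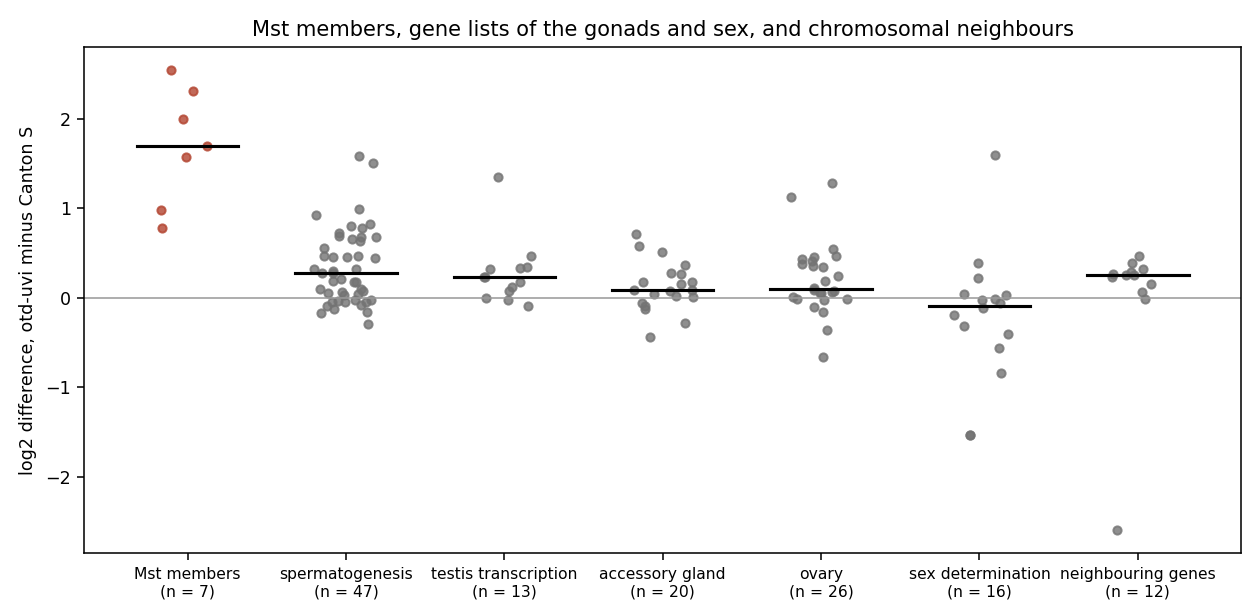
Log2 difference, otd-uvi minus Canton S, of the 7 Mst genes, of 5 lists of gonad and sex genes and of 12 chromosomal neighbours, 1 point per gene and a bar at the median. The Mst median is 1.70, and the list medians run from -0.09 to 0.27.

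Sxl and msl-3 were the genes of sex determination that passed the test, in opposite directions. Of 16 measured genes of sex determination, dosage compensation and yolk, 1 rose and 1 fell, against 0.322% and 0.451% of all probe sets. An unadjusted p under 0.05 was found for 4, against 15.0% of all probe sets. The difference was above 0 for 5, against 55.2% of all probe sets, and the median log2 difference was -0.09. Sxl, the master switch of female development, had signals of 158, 248 and 171 on the otd-uvi arrays and of 576 and 555 on the Canton S arrays (143373_at, log2 difference -1.54, SE 0.21, adjusted p = 0.0267). Its other probe set had 80.0, 106 and 94.4, against 209.9 and 264 (144641_at, -1.27, SE 0.20, adjusted p = 0.0467). Both probe sets were highest among the otd-uvi arrays on array 2, the array on which 6 of 7 Mst genes were lowest. That was not particular to Sxl: dsx, fru, mle and mof of this list and the photoreceptor genes chp, Arr2 and trp were also highest there. Other genes of the list, apart from Yp3, were not. Yp3, a yolk protein gene of females, had 14.3, 21.0 and 16.5 on the otd-uvi arrays and 61.5 and 68.7 on the Canton S arrays (-1.54, SE 0.28, adjusted p = 0.0731, and 0.0409 without the dimmest 40% of probe sets), and it too was highest on array 2 among the mutant arrays. The other yolk protein genes had positive differences that did not pass: Yp2 had 15.7, 16.5 and 22.2 on the otd-uvi arrays and 9.91 and 14.1 on the Canton S arrays (0.39, adjusted p = 0.543), and Yp1 was at 0.04 (adjusted p = 0.951).

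The gene that rose was msl-3 (143267_at), of the complex that raises X-linked transcription in males. Its signals were 25.3, 23.5 and 25.1 on the otd-uvi arrays and 3.20 and 2.50 on the Canton S arrays (log2 difference 1.59, SE 0.23, adjusted p = 0.0380). With Canton S set to its brightest mouse or yeast control, msl-3 was at least 2.67-fold higher in otd-uvi. That bound is lower with a bacterial control of 19.2 on Canton S array 1. The brightest mouse or yeast controls were at 22.9, 11.2 and 16.2 on the otd-uvi arrays, so msl-3 was near them on array 1. Unlike the Mst genes msl-3 was even across the mutant arrays. Another gene of the complex, msl-2, went the other way, at -0.84 (adjusted p = 0.288). Sxl (143373_at) passed without otd-uvi array 2 and in none of the 4 other fits that left out 1 array, and msl-3 in none of the 5. With no intensity trend this Sxl probe set did not pass (adjusted p = 0.0668) while Yp3 did (adjusted p = 0.0433). The sex of the heads was not given, and its part in the Mst differences was not tested.

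Markers of body tissue were measured on the same arrays. Of 7 measured muscle genes 0 passed in limma and 2 had an unadjusted p under 0.05, against 0.773% and 15.0% of all probe sets. The summed signals of the 7 were 13444 to 17184 in otd-uvi and 12528 to 12667 in Canton S. The markers of indirect flight muscle, a muscle of the thorax, varied most. Act88F, its actin, had signals of 1707, 2871 and 2216 on the otd-uvi arrays and of 1478 and 470.4 on the Canton S arrays (adjusted p = 0.227). The flight muscle genes fln and TpnC4 were likewise highest on otd-uvi array 2 and lowest on Canton S array 2. Beside this, 6 of 7 Mst genes were lowest among the otd-uvi arrays on array 2, and on the Canton S arrays the Mst genes differed by factors of 1.02 (Mst84Da) to 1.91 (Mst98Ca, lower on array 2). Of 17 genes of the gut and the Malpighian tubule 4 were under the brightest control on every array. The 17 had 0 calls in limma and 2 genes with an unadjusted p under 0.05, against 0.773% and 15.0% of all probe sets. Their summed signal was 349.7 to 469.7 in otd-uvi, lowest on array 2, and 279 to 327 in Canton S, and 58.8% of them had their lowest otd-uvi signal on array 2.

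Some photoreceptor genes of the head fell in otd-uvi. Of 13 measured genes of photoreceptors, neurons and glia, 4 fell and 0 rose in limma, against 0.451% and 0.322% of all probe sets. An unadjusted p under 0.05 was found for 8, 7 of them lower in otd-uvi, against 15.0% of all probe sets in either direction. The median log2 difference of the 13 was -0.88, and their summed signal was 6081 to 7353 in otd-uvi and 12619.7 to 13605 in Canton S. All 4 that fell are photoreceptor genes: chp (-1.61, adjusted p = 0.00968), Arr2 (-1.42, adjusted p = 0.0117), inaD (-1.26, adjusted p = 0.0127) and trp (-1.07, adjusted p = 0.019). Arr1, a photoreceptor gene too, was at -0.03 (adjusted p = 0.94). The neuronal genes Syn (-1.24, adjusted p = 0.065), nSyb (-0.93, adjusted p = 0.122) and elav (-0.88, adjusted p = 0.321) were lower but did not pass. The glial genes repo and nrv2 were at 0.09 and 0.05. Without a Canton S array 0 of the 13 passed, and without an otd-uvi array 1 or 2 did. The part of any of these tissues in the Mst differences was not tested.

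**Figure D4:**
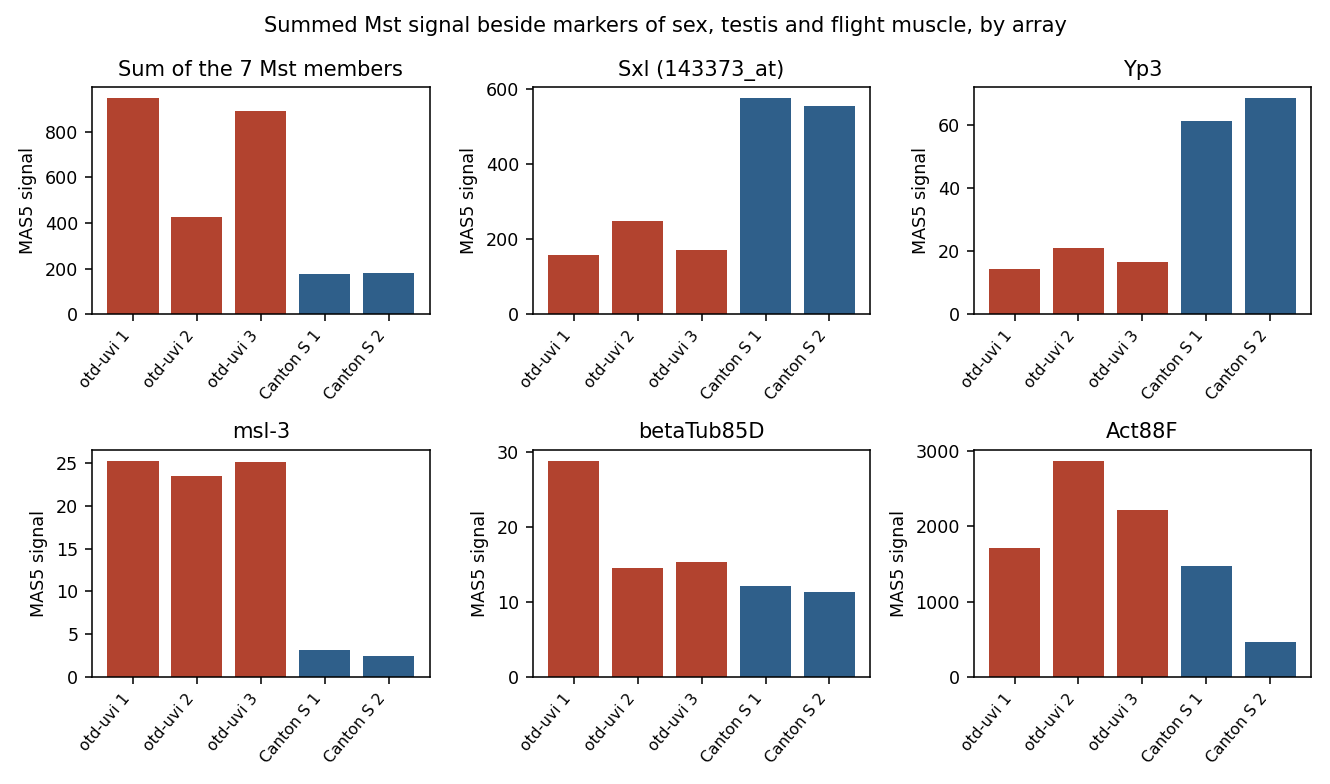
MAS5 signal on the 3 otd-uvi arrays and the 2 Canton S arrays for the sum of the 7 Mst genes and for single genes of sex (Sxl, Yp3, msl-3), testis (betaTub85D) and flight muscle (Act88F). The summed Mst signal is 948, 428 and 893 in otd-uvi, and Sxl, Yp3 and Act88F have their highest otd-uvi value on array 2.

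The genes flanking the Mst genes gave no call. Only 0.773% of all probe sets were called in either direction, so nothing is read from this. The nearest measured genes were taken, up to 2 on each side of each cluster, a rule set after the data were seen. Of 12 such genes 0 passed in limma, 1 had an unadjusted p under 0.05 (against 15.0% of all probe sets), and the log2 differences lay between -2.60 and 0.46. Without overlap between the strains were 6 of the 12. Dip-B, CG9286, CG14362, UQCR-14L and CG12516 were higher in otd-uvi, as were 18.6% of all probe sets without overlap, and CG34354 was lower. MstProx, the gene next to Mst84Da, had signals of 4.05, 2.20 and 3.68 on the otd-uvi arrays and of 2.98 and 3.93 on the Canton S arrays, under the controls. On the other side of that cluster CG17944 was at or under 1.85 on every array. UQCR-14L, next to Mst98Cb, was at 0.46 (adjusted p = 0.400) and under the controls. The outlying value belonged to CG34354, the second measured gene before Mst98Ca, with 124, 57.9 and 11.7 on the otd-uvi arrays and 443 and 242 on the Canton S arrays (-2.60, SE 0.72, adjusted p = 0.184).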

How the data were processed

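The authors deposited 1 signal intensity per probe set and array, computed with MAS5 per the submitters' processing notes. Its version, settings and scaling target are not given in the sources used here. The values are linear, with similar medians. Of the probe sets, 44 are controls and 13966 were tested. A table of array annotation names 1 gene for 12443, and symbols of 12394 were updated by gene identifier. No genome build is named, so no positions are given.

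Signals were analysed as log2(signal + 8), 8 being the rounded 20th percentile. limma 3.58.1 in R 4.3.3 (lmFit, eBayes with an intensity trend) fitted strain over all 5 arrays. Benjamini-Hochberg adjustment ran over 13966 probe sets, with a threshold of 0.05. The pipeline was tested on simulated data. In lists, the brightest probe set stood for a gene. Members, lists and alternatives were chosen with earlier results of these data known. Named genes were the members, listed genes past the threshold, up to 4 listed genes with the largest differences, and the 6 nearest profiles. Others are marked. Fold bounds use the brightest of 8 mouse and yeast controls. Alternatives were quantile, median and cyclic loess normalization, another pseudocount, a floor, a filter on dim probe sets, no trend, array weights, a replicate block, an RNA integrity covariate and leaving out each array.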

Additional observations from a re-analysis of the deposited data

How the results depend on the processing

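The differences of the 7 Mst genes were above 0 in every setting run. Their median, 1.70, was 1.13 with a pseudocount 4 times larger and 2.31 with a floor in place of the pseudocount, and 1.43 to 2.27 without 1 array, the highest without otd-uvi replicate 2. Mst84Db passed the threshold in 9 of the settings besides the reported one and Mst84Dd in 6. Both passed without otd-uvi replicate 2 and neither in the 4 other fits without 1 array, with the RNA integrity covariate or with the replicate block. The count over all probe sets, 108, was 208 without the dimmest 40%, 8 with the RNA integrity covariate and 2 to 22 without 1 array (3 and 2 without Canton S replicates 1 and 2, and 18, 22 and 8 without otd-uvi replicates 1, 2 and 3). With the replicate block it was 1; deviations of same-numbered arrays correlated at -0.00451 and 0.115, and the numbers were treated as labels. The spermatogenesis list had 1 call with no intensity trend and with array weights, and the ovary list 1 without the dimmest 40%. The sex determination list, with 2 calls, had 1 with cyclic loess, 0 with the replicate block and with the RNA integrity covariate, and 0 to 1 without 1 array; with no intensity trend its 2 were msl-3 and Yp3, and without the dimmest 40%, which leaves out msl-3, Sxl and Yp3. The head tissue list, whose alternatives were added after seeing the data, had 4 calls, 0 with the replicate block and with the RNA integrity covariate, and 0 to 2 without 1 array. The sign turned for kmg (-0.11 with the RNA integrity covariate, -0.12 to 0.80 without 1 array, the lowest without Canton S replicate 2), Mst57Da (-0.11 with the RNA integrity covariate) and Mst57Dc (-1.03 to 0.15 without 1 array, the highest without Canton S replicate 1); the cause was not tested. Mst98Cb was left out by the filter on dim probe sets. With 2 Canton S arrays, a fit without 1 assumes that the other varies as the otd-uvi arrays do. Signals under the controls give bounds only.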
